A study of Mus musculus with 8 samples.

Results

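Intron reads were compared between late night and late day in mouse liver (strain C57/BL6, genotype WT). Late night comprised the libraries of circadian time (CT) 23 and 47, at the end of the subjective night, and late day those of CT35 and CT59, at the end of the subjective day. CT counts the hours of the animals' internal day. All animals shared this genotype and received no agent. They had lived under 12 h of light and 12 h of darkness and were then kept in constant darkness for a day ahead of the first collection. RNA of 3 animals was pooled for each library, 1 library was made per time, and sex and age are not given in the labels. The libraries of CT29 and CT53 (middle of the subjective day) and of CT41 and CT65 (middle of the subjective night) entered the estimate of the spread. Qualifying introns were those of annotated transcripts that overlapped no exon of another transcript. They were summed per gene, and the 7292 genes with a mean of 20 or more intron reads over the 4 libraries compared were kept, of 24142 named genes in the tables and 20285 with at least 1 qualifying intron. The genes just inside this limit were 1810012K08Rik, 4930545L23Rik and Agpat5, with a mean of 20 reads each, and those just outside were 4833418N02Rik, Arpc3 and Ccndbp1, with 19.75 each.

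Introns are removed from most transcripts soon after they are made, so intron reads of a gene are taken here to come mostly from RNA not spliced yet. Exon reads come largely from mature mRNA, whose level also depends on its decay. The RNA was polyA-selected, and reads of retained introns or of other transcripts within an intron were not set apart. In the circadian clock of the liver, the activators BMAL1 (gene Arntl), CLOCK and NPAS2 bind E-box sequences and drive the genes of their own repressors, the PER and CRY proteins. They also drive the genes of the REV-ERB receptors (Nr1d1, Nr1d2), which compete with ROR receptors at RORE sequences in Arntl and other genes, and of DBP, TEF and HLF, which bind D-box sequences. Liver metabolism follows these loops and the daily feeding rhythm.

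The libraries held 1.12 to 1.52 M qualifying intron reads each, and levels are given as reads per 1 M reads of the same kind (intron RPM or exon RPM). The CT35 library stood apart: it had 9.06 intron reads per 100 exon reads, against 14.4 to 17.1 in the other 7, it was the deepest (22.9 M reads behind 1 RPKM, against 11.7 to 13.9 M), and its median correlation with the other libraries over introns was 0.901, against 0.923 to 0.939. The track line of its junction file is named by another pattern than the other 7, and whether it was processed differently is not stated. Intron reads were therefore scaled to their own total. Introns of Alb, the albumin gene of hepatocytes, held 28177 and 37698 intron RPM at CT23 and CT47, against 34823 and 27946 at CT35 and CT59. Marker lists of the other liver cells had few members: 3 of 6 for Kupffer cells, 5 of 6 for endothelium, 4 of 6 for stellate cells, 1 of 5 for cholangiocytes and 1 of 5 for lymphocytes. Their summed intron levels at late night and late day were 139 and 167 against 163 and 171 RPM (Kupffer cells), 454 and 475 against 416 and 506 RPM (endothelium), and 203 and 178 against 159.8 and 183 RPM (stellate cells). In each of the 3 the groups overlap. In pooled bulk tissue, fewer cells of a type and less RNA per cell cannot be told apart.

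Between late night and late day, 254 of the 7292 genes passed the test in introns (3.48%): 118 rose at late night (1.62%) and 136 fell (1.87%). The test was limma with Benjamini-Hochberg adjustment, called at an adjusted p under 0.05. Of the genes that rose, 113 changed at least 2-fold and 27 at least 4-fold. Of those that fell, it was 128 and 34. Over all 7292 genes the median log2 difference was 0.01 and the median of its size 0.28. Both late-night libraries lay above both late-day libraries in 1531 genes (21%) and below both in 1500 (20.6%). The groups lay apart in all 118 called genes that rose and all 136 that fell, so a lack of overlap adds no support to a call. The genes called were read more deeply than the rest, with a median of 173 reads per library for those that rose and 130 for those that fell, against 61.5 for all members. Each clock phase has 2 pooled libraries, so p-values measure the spread of single libraries around a 24-h curve and not the spread between animals. Leaving out a library left 141 (without CT23), 149 (without CT47) or up to 261 calls, and 85 genes (38 higher, 47 lower) were called whichever library was left out. Scaled to the whole library, which moved the median of all genes to 0.22, 84 genes rose and 48 fell, and with the deposited upper value 50 rose and 271 fell.

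Introns of the core clock changed both ways. Of 25 clock genes, 21 had enough intron reads (Nfil3, Bhlhe41, Csnk1e and Fbxl21 did not), and 13 of these passed the test in introns, 3 higher and 10 lower at late night. Their median log2 difference was -1.51 in introns, against 0.01 over all members, and -0.96 in exons. Without CT35, 12 of the 21 were called. Over all 7292 genes the share called was 3.48%.

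The activators rose at late night. Arntl, which encodes BMAL1 (chromosome 7, 120350979 to 120457636, in mm9 as for all genes here), had 237 and 220.3 intron RPM at CT23 and CT47, against 15.1 and 19.97 at CT35 and CT59. Both late-night libraries lay far above both late-day ones, a log2 difference of 3.68 (standard error, SE, 0.30, adjusted p = 3.54e-07). Its exons had 52.6 and 53.9 exon RPM at late night, against 1.07 and 2.91 at late day (log2 4.54, adjusted p = 0.00534). Npas2, the partner of BMAL1 that can stand in for CLOCK (chromosome 1, 39251117 to 39420085), had 363 and 302 intron reads at late night, against 5 and 1 at late day. The depth-scaled ratio of late night over late day was 118 in introns (95% exact binomial interval 53.9 to 322, which covers counting error only). In exons it was 185 (interval 72 to 683), from 4 late-day reads. The fitted log2 difference, the largest of the genes that rose, was 6.82 (SE 0.58, adjusted p = 1.46e-05) in introns and 5.43 (adjusted p = 0.0117) in exons. Clock, the other partner (chromosome 5, 76641202 to 76733573), had 120.2 and 128 intron RPM at late night, against 28.9 and 58.4 at late day. The groups did not overlap but lay closer than for Arntl and Npas2 (log2 1.58, SE 0.33, adjusted p = 0.00688), and the call was lost without CT35 or without CT47 (adjusted p up to 0.0805).

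The repressors of the PER family fell. Per3 (chromosome 4, 150377761 to 150418774) had 7.96 and 15.1 intron RPM at late night, against 296 and 214 at late day, and had the smallest adjusted p of all introns (log2 -4.45, SE 0.35, adjusted p = 2.69e-07). Per1 (chromosome 11, 68912450 to 68923462) had 12.3 and 19.7 intron RPM, against 102 and 167 (log2 -3.03, SE 0.40, adjusted p = 0.00016), and Per2 (chromosome 1, 93312559 to 93355905) 114 and 99.2, against 289.9 and 317 (log2 -1.51, SE 0.25, adjusted p = 0.000771). All 3 were separated without overlap, Per2 the least, and Per2 was not called when intron reads were scaled to the whole library. Cry1, the cryptochrome that represses late in the cycle, had 41.3 and 59.1 intron RPM at late night and 34.2 and 45.1 at late day, groups that overlap (log2 0.33, SE 0.45, adjusted p = 0.863). Cry2 had 16.7 and 24.98 intron RPM, against 41.4 and 49.6 (log2 -1.13, SE 0.34, adjusted p = 0.0771), without overlap and without passing the test. All 6 of its qualifying introns overlap an intron of another gene, so reads of that gene may be among them.

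Among the receptors that read the RORE, Nr1d2, which encodes REV-ERB beta (chromosome 14, 19036568 to 19071641), had 11.6 and 6.06 intron RPM at late night, against 70.3 and 53.2 at late day (log2 -2.79, SE 0.38, adjusted p = 0.000119). The groups were well apart, but 1 of its 6 introns held 54.9% of its reads over the 8 libraries, and the call was lost without that intron. Nr1d1, which encodes REV-ERB alpha, had 15.2 and 12.1 intron RPM, against 46.0 and 63.6, without overlap, and was not called (log2 -1.96, SE 0.69, adjusted p = 0.237), though it was when the 4 libraries were fitted alone. Its highest intron levels fell outside this comparison, at 319 and 522 RPM in CT29 and CT53. Rora, which encodes ROR alpha, had 193 and 191, against 111 and 237, with the groups overlapping (log2 0.24, adjusted p = 0.851).

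The D-box factors and other outputs of the loop fell or did not pass the test. Dbp (chromosome 7, 52960458 to 52965525), whose only qualifying intron is 0.843 kb long, had 1 intron read in each late-night library, against 110 and 133 at late day. The depth-scaled ratio was 0.00875 (95% exact binomial interval 0.00105 to 0.032, counting error only), and the fitted log2 difference of -6.10 was the largest of the genes that fell (adjusted p = 8.62e-07). Tef (chromosome 15, 81633103 to 81657291) had 7.24 and 7.57 intron RPM, against 84.8 and 54.0 (log2 -3.11, SE 0.37, adjusted p = 2.36e-05), and Hlf 40.5 and 43.9, against 49.3 and 115, which did not pass (log2 -0.83, adjusted p = 0.212). Hlf did pass with the deposited upper value. No junction read crossed the only qualifying intron of Hlf in any of the 8 libraries. Ciart, which encodes the repressor CHRONO (chromosome 3, 95682426 to 95686128), had 4.34 and 3.79 intron RPM, against 53.3 and 74.0 (log2 -3.80, SE 0.45, adjusted p = 2.21e-05). All 4 qualifying introns of Ciart overlap an intron of another gene, and the strand setting of the quantification is not given, so reads of that gene cannot be set apart. Usp2, a deubiquitinase (chromosome 9, 43893003 to 43903710), had 12.3 and 18.2 intron RPM, against 126 and 109 (log2 -2.93, SE 0.35, adjusted p = 2.21e-05), and Bhlhe40, the repressor DEC1, 18.8 and 20.4, against 66.4 and 51.0 (log2 -1.55, adjusted p = 0.00703; the call was lost without CT23 or CT35 and under scaling to the whole library). Csnk1d, a kinase of PER proteins, and Timeless had log2 differences of -0.28 and 0.04 in introns, and neither passed (adjusted p = 0.785 and 0.988).

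**Figure D1:**
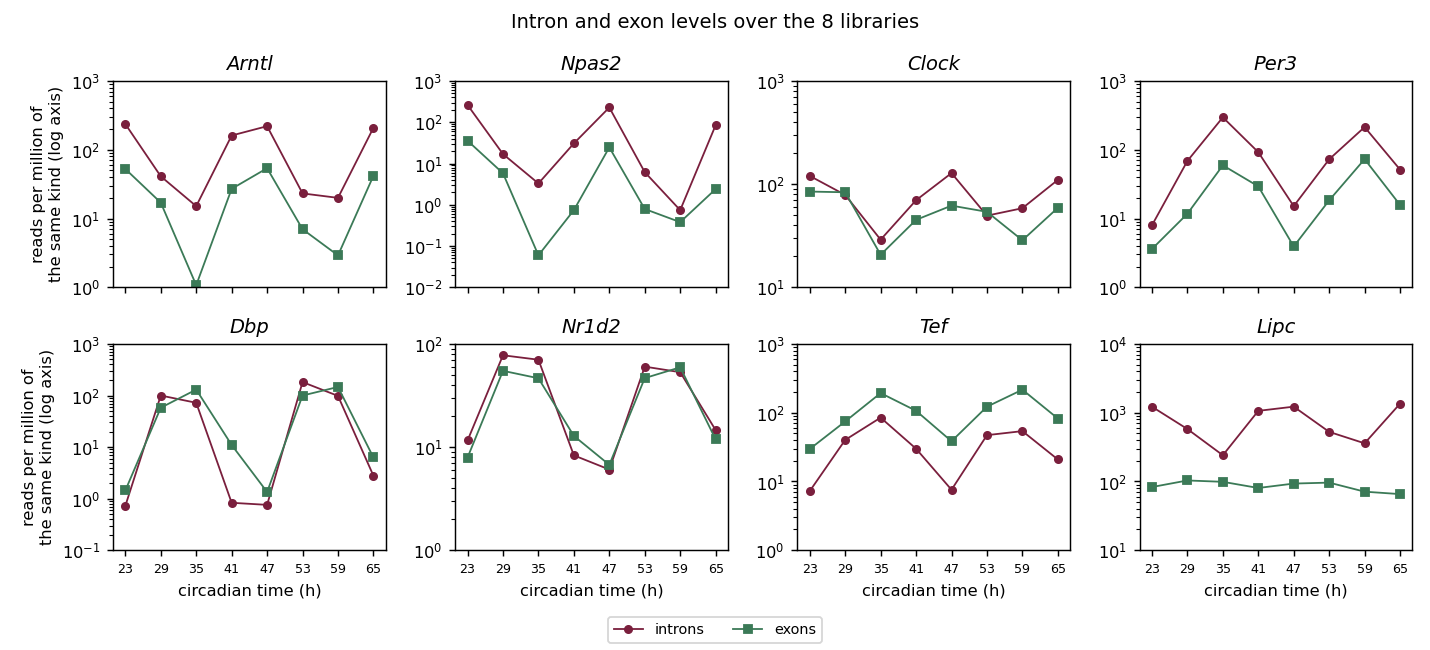
Levels of 8 genes in the 8 libraries (horizontal axis, circadian time in h; vertical axis, intron RPM or exon RPM, log scale; circles introns, squares exons, 1 library per point). Introns of Arntl, Npas2, Clock and Lipc were higher at CT23 and CT47 than at CT35 and CT59, those of Per3, Dbp, Nr1d2 and Tef lower, and the exons of Lipc stayed between 65.4 and 103 RPM.

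Among the genes whose introns fell, the promoters of 3 are printed because they hold letters of the E-box or D-box. Of the 12 clock genes and largest changes named here that fell, 10 had a promoter in the RefSeq table (GRCm38.p6), and in the 250 bases before the start the E-box CACGTG was found in 4 of them and the D-box TTANGTAA in 1. Of the 9 that rose, 6 had a promoter, and none held the RORE core (TAGGTCA or TGGGTCA) in this window. Both strands were searched, and the 3 motifs share no bases in the windows printed. The windows of Per3 (chr4:151044666-151044915, minus strand), Ciart (chr3:95882229-95882478, minus strand) and Fkbp5 (chr17:28486150-28486399, minus strand) read, 5′ to 3′ with D-boxes (Per3) and E-boxes (Ciart and Fkbp5) in capitals:
Per3: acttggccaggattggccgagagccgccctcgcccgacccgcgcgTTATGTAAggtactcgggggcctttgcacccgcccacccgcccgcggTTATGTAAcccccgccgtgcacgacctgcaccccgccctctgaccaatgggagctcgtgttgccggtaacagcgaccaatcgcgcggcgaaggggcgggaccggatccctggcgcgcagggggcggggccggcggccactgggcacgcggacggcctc
Ciart: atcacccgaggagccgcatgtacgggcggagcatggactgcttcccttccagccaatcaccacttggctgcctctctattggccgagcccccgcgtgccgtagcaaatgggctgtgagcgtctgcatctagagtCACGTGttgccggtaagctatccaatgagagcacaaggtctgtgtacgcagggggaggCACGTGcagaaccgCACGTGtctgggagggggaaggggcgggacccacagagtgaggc
Fkbp5: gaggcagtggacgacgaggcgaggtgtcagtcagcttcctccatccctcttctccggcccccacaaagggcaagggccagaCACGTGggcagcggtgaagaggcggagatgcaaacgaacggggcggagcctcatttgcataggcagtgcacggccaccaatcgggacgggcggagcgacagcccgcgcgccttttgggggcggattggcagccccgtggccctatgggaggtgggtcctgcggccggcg
The D-boxes of Per3 begin 205 and 158 bases before the start, the E-boxes of Ciart 116, 58 and 44, and that of Fkbp5 169. Over all promoters of the table, 6.86% of genes held an E-box in the window, 2.44% a D-box and 6.15% a RORE core. Among genes whose introns fell it was 11.4%, 3.81% and 2.86% of the 105 with a promoter, among genes whose introns rose 8.6%, 2.15% and 9.68% of 93, and among all members 10.8%, 2.02% and 5.85% of 5851. A match is a description of the letters and not a bound site.

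The 8 largest called changes each way were taken among genes with a mean of 50 or more intron reads and no overlap of the groups. The limit on reads leaves out larger changes of genes with fewer reads, such as Rgs16 (log2 -4.64) and Ciart. At late night Elovl3, an elongase of very long fatty acids (chromosome 19, 46206387 to 46210184), had 483 and 447 intron RPM, against 13.1 and 28.8 at late day (log2 4.54, SE 0.41, adjusted p = 1.46e-05). Pitx3, a homeobox factor whose gene lies tail to tail with Elovl3 (chromosome 19, 46210175 to 46222815), had 512 and 436 intron RPM, against 8.55 and 9.61 (log2 5.63, SE 0.46, adjusted p = 1.6e-05). Neither gene's groups overlapped, but their junction reads parted: those of Elovl3 numbered 1127 and 1485 at late night, against 263 and 71 at late day, whereas none crossed a qualifying intron of Pitx3 in any of the 4 libraries. With no strand given, transcription through the end of Elovl3 and unspliced Pitx3 RNA cannot be told apart.

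Dtx4, a ubiquitin ligase (chromosome 19, 12540826 to 12576486), had 91.2 and 114 intron RPM at late night, against 15.1 and 11.8 at late day (log2 2.88, SE 0.40, adjusted p = 0.000221). Rnf125, another ubiquitin ligase, had 151 and 90.9, against 19.1 and 12.6 (log2 2.88, SE 0.35, adjusted p = 2.36e-05). The groups overlapped in neither gene, which the choice of genes required. Smagp, a small transmembrane glycoprotein of cell contacts, had 277 and 195 intron RPM, against 25.6 and 40.7 (log2 2.83, SE 0.32, adjusted p = 1.6e-05), and 93.2% of its intron reads over the 8 libraries lay in 1 intron. Clic3, an intracellular chloride channel protein, had 70.2 and 95.4 intron RPM, against 13.1 and 14.8 (log2 2.51, SE 0.59, adjusted p = 0.0321). The call did not survive leaving out CT23, CT35, CT47 or CT59 (adjusted p up to 0.138), and its qualifying introns (0.206 kb) overlap an intron of another gene.

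Of the 8 largest decreases above that mean of 50 reads, Dbp, Per3, Tef, Per1 and Usp2 are clock genes. The other 3 are not. Nrg4, a neuregulin secreted as a ligand of ERBB receptors (chromosome 9, 55068029 to 55131432), had 5.79 and 13.6 intron RPM, against 116 and 104 (log2 -3.55, SE 0.35, adjusted p = 3.22e-06). Upp2, a liver uridine phosphorylase (chromosome 2, 58607353 to 58643653), had 276 and 285, against 3345 and 2006 (log2 -3.20, SE 0.31, adjusted p = 2.75e-06). Fkbp5, a glucocorticoid-induced co-chaperone of the glucocorticoid receptor (chromosome 17, 28536042 to 28654469), had 15.9 and 20.4, against 199.9 and 110.2 (log2 -3.01, SE 0.36, adjusted p = 2.24e-05). In none of the 3 did the groups overlap, which the choice of genes required. No call of these 3 was lost when 1 library was left out.

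**Figure D2:**
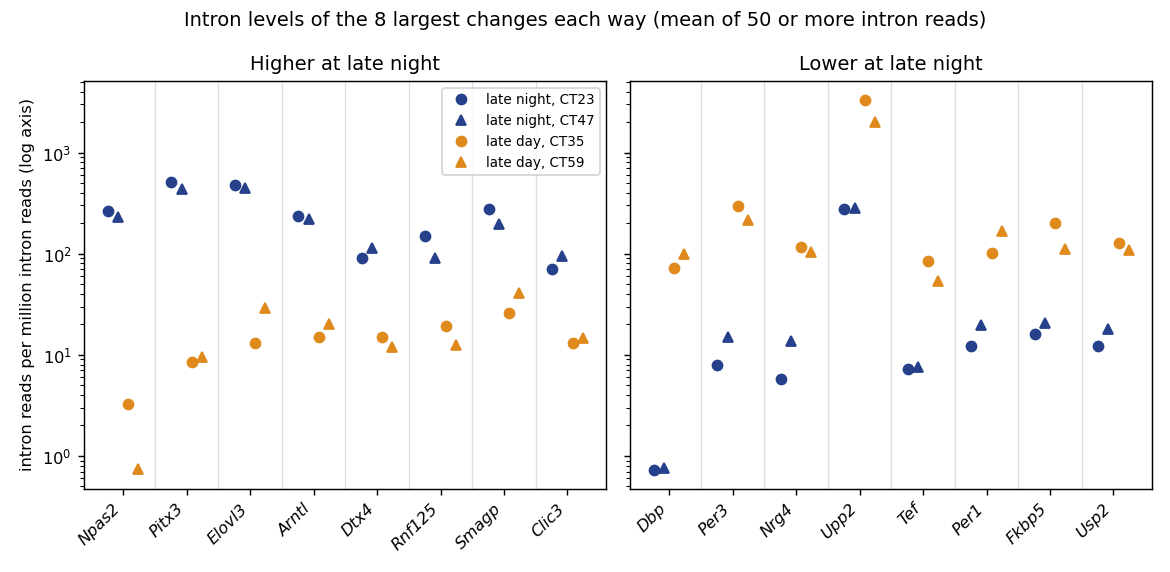
Intron levels of the 8 largest called changes each way among genes with a mean of 50 or more intron reads (horizontal axis, gene; vertical axis, intron RPM, log scale; blue late night, orange late day; circle first day, triangle second day, 1 library per point). The 16 genes were chosen to have both late-night libraries on 1 side of both late-day libraries. Levels ran from 0.724 RPM (Dbp, CT23) to 3345 RPM (Upp2, CT35).

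Targets of the loop were described as lists, to be set beside the 3.48% of all 7292 genes called in introns and the 2.6% of all genes tested called in exons. Of 17 members in the E-box and D-box list, 14 fell at late night in introns and none rose (median log2 -2.25 in introns and -2.25 in exons, 12 of 17 falling in exons), and without CT35 it was 13 in introns. Of these, 10 belong to the clock list, and Alas1 and Por are counted again in the xenobiotic list below. Beside them, Nampt, the rate-limiting enzyme of NAD salvage, had 26.8 and 41.6 intron RPM, against 235 and 110.2 (log2 -2.25, adjusted p = 0.00084), and Wee1, a kinase that holds cells before mitosis, 3.62 and 5.30, against 24.98 and 34.0 (log2 -2.60, adjusted p = 0.00813, lost without CT59). Both genes were separated without overlap. Ces2a, a carboxylesterase of this list, had 258 and 339.9 intron RPM, against 277 and 277, and did not pass (log2 0.10, adjusted p = 0.953). In the RORE list 4 of 8 members were called, with Arntl, Npas2 and Clock the 3 that rose (median log2 1.10 in introns and 1.28 in exons). Elovl5, a fatty acid elongase, was the most abundant of the RORE list that did not pass, with 237 and 259.7 intron RPM, against 94.0 and 159.8 (log2 1.02, adjusted p = 0.0572). Its exons did pass, with 383 and 452 exon RPM, against 147 and 209 (log2 1.25, adjusted p = 0.0178), and were 1 of 4 calls of the list in exons, all higher.

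In glucose and lipid pathways single members were called. The share to set beside the counts of these and the later lists is that over all 7292 genes, 3.48% in introns (1.62% higher, 1.87% lower). No list was tested as a set, so a few calls in a list show no change of the pathway. Pck1, the rate-limiting enzyme of gluconeogenesis, had 468 and 473 intron RPM at late night, against 2720.4 and 2685 at late day (log2 -2.52, SE 0.30, adjusted p = 2.36e-05), a clear separation. With Slc37a4, the glucose 6-phosphate transporter (log2 -1.16, adjusted p = 0.0162, lost without CT23 or CT35, with the 4 libraries alone and under scaling to the whole library), it made up the 2 calls among 12 members of gluconeogenesis and glycogen, both lower (list median -0.34). Tat, tyrosine aminotransferase, was the most abundant of that list without a call (log2 -0.91, adjusted p = 0.124). In glycolysis 3 of 14 members were called, all lower (list median -0.27). Pfkfb3, which makes the glycolytic activator fructose 2,6-bisphosphate, had 10.9 and 9.09 intron RPM, against 88.1 and 65.1 (log2 -2.87, SE 0.33, adjusted p = 1.85e-05). Slc2a2, the glucose transporter GLUT2, and Pfkfb1, the liver isoenzyme of Pfkfb3, had smaller log2 differences of -1.20 and -1.01 (adjusted p = 0.00813 and 0.0284), and both calls were lost without CT23 or CT47, that of Pfkfb1 also without CT35, and when scaled to the whole library. Gckr, the glucokinase regulator, had the most intron reads of the list and no call (log2 0.65, adjusted p = 0.327).

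Of 22 members of fatty acid and triglyceride synthesis, Elovl3 rose and Lpin2, a phosphatidate phosphatase, fell (log2 -1.96, adjusted p = 0.00235, lost with the upper value), with a list median of 0.02. Lpin1, of the same enzyme family, had 52.1 and 59.1 intron RPM, against 1599 and 672, a wider separation than Lpin2, and did not pass (log2 -4.21, SE 0.87, adjusted p = 0.0722), though it did with the 4 libraries alone and with DESeq2. Its exons fell (log2 -3.84, adjusted p = 0.000472). Scd1, stearoyl-CoA desaturase, the most abundant member without a call, had 3024 and 3416 intron RPM, against 1758 and 1600.5 (log2 0.94, adjusted p = 0.0623).

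Abcb11, the bile salt export pump, rose as the only 1 of 13 bile acid genes (947 and 1012 intron RPM, against 344 and 425; log2 1.35, SE 0.25, adjusted p = 0.00237; list median -0.01). The bile acid receptor gene Nr1h4 had the most intron reads among the others, at log2 -0.43 (adjusted p = 0.529). Among 20 members in the list of PPAR alpha targets and fatty acid oxidation, Angptl4, an inhibitor of lipoprotein lipase, fell (log2 -1.76, adjusted p = 0.00169) and Plin2, a lipid droplet protein, rose (log2 1.24, adjusted p = 0.0131, lost without CT35 or CT47), with a list median of -0.11. Both calls of that list were lost when intron reads were scaled to the whole library.

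In amino acid and xenobiotic metabolism more members were called in introns than in exons when reads were scaled to the total of their own kind. This gap between counts was not tested, and it did not hold in both lists under scaling to the whole library. Of 20 members of amino acid metabolism and the urea cycle, 6 were called in introns, 2 higher and 4 lower (median log2 -0.65), and 1 in exons (median -0.20). Ahcy, which clears S-adenosylhomocysteine, had 179.6 and 246 intron RPM at late night, against 1139 and 644 at late day (log2 -2.02, SE 0.31, adjusted p = 0.000407). Mat1a, which makes S-adenosylmethionine in the liver, had 1482 and 1179.6, against 3514 and 3097 (log2 -1.32, adjusted p = 0.00165). Both were lower in each late-night library, as were Sds, serine dehydratase (log2 -1.65, adjusted p = 0.0047, lost without CT35), and Asl, argininosuccinate lyase of the urea cycle (log2 -1.09, adjusted p = 0.015, lost without CT23, CT47 or CT59). Cbs, cystathionine beta-synthase, and Hal, histidine ammonia-lyase, rose (log2 1.16 and 1.18, adjusted p = 0.00652 and 0.0147). The Cbs call was lost without CT47 and the Hal call without CT23, CT35 or CT47. Cps1, the first enzyme of the urea cycle and the most abundant in introns, was at log2 -0.09 (adjusted p = 0.946). Of these 6 calls, only 1 was left in the list when intron reads were scaled to the whole library, that of Ahcy. On that scale 0 members of the list were called in exons.

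Of 24 members of xenobiotic metabolism and its nuclear receptors, 7 were called in introns, 1 higher and 6 lower (median log2 -0.57), and 3 in exons, all lower (median -0.11). Alas1, the rate-limiting enzyme of heme synthesis, had 489 and 771 intron RPM at late night, against 2712 and 2194 at late day (log2 -1.99, SE 0.33, adjusted p = 0.000976), and Por, the electron donor of cytochromes P450, 395 and 555, against 1436 and 1612 (log2 -1.70, SE 0.29, adjusted p = 0.00119). Alas1 and Por, which also count in the E-box and D-box list, were lower in each late-night library. So was Fmo5, a flavin monooxygenase (487 and 505 intron RPM, against 2065 and 1449; log2 -1.80, adjusted p = 0.00188). The sulfotransferase Sult1d1 (log2 -1.69), the glutathione transferase Gsta3 (-0.92) and Cyp2b10, a cytochrome P450 of drug metabolism (-2.02), also fell. Gstm1, a glutathione transferase of the mu class, rose (1.05). Each of these 4 calls was lost without at least 1 of the 4 libraries compared. All 4, and that of Por, were also lost under scaling to the whole library, where 2 calls of the list were left in introns. On that scale 3 members were called in exons, all lower. Cyp2e1, the most abundant in introns, was at log2 -0.63 (adjusted p = 0.17).

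Among 7 members of the glucocorticoid-induced and immediate early list, Fkbp5 and Per1 fell together with Zbtb16, the transcription factor PLZF, which had 185 and 290.0 intron RPM at late night, against 678 and 1282 at late day (log2 -2.01, SE 0.32, adjusted p = 0.000629). The list median was -1.58 in introns and -1.55 in exons, and Mt1, a metallothionein, was at log2 -1.58 without passing (SE 0.57, adjusted p = 0.235). Mt1 did pass with the 4 libraries alone, with DESeq2 and with the upper value. Pdia4 and Calr, which fold proteins in the endoplasmic reticulum, were the 2 calls among 14 chaperones, both higher (log2 1.31 and 1.10, adjusted p = 0.0039 and 0.0214; median of the list 0.46). The Pdia4 call was lost without CT47 (adjusted p up to 0.059 over the libraries left out) and the Calr call without CT35, CT47 or CT59 and under scaling to the whole library. Neither was called with the upper value. Hsp90b1, the chaperone GRP94, was at log2 0.82 (adjusted p = 0.119). In exons the median of the 14 was 0.04.

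Of 20 acute phase and plasma protein genes, Il6ra, the interleukin 6 receptor, fell (log2 -1.61, adjusted p = 0.00333, lost without CT23) and Fgg, the gamma chain of fibrinogen, rose (log2 0.92, adjusted p = 0.0324, lost without CT23, CT47, CT59 or CT65). Alb was at log2 0.06 (adjusted p = 0.963), and the list median was 0.31. Scaled to the whole library, neither Il6ra nor Fgg was called. Of the markers of other cells, Clec4f (Kupffer cells), Stab2 (endothelium), Reln (stellate cells) and Ptprc (lymphocytes) had log2 differences of -0.40, 0.04, 0.25 and 0.10 in introns, none of which passed (adjusted p = 0.579, 0.976, 0.812 and 0.968). Sox9, a transcription factor of bile duct cells, rose at late night, with 34.8 and 23.5 intron RPM, against 1.97 and 5.18 (log2 2.96, SE 0.62, adjusted p = 0.00756, lost without CT23 or CT47), and its exons had 49.8 and 24.8 exon RPM, against 6.31 and 13.3. The exons of the other 4 bile duct markers, Krt19, Krt7, Epcam and Spp1, summed to 32.3 and 36.7 exon RPM at late night, against 67.8 and 31.1 at late day, groups that overlap.

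**Figure D3:**
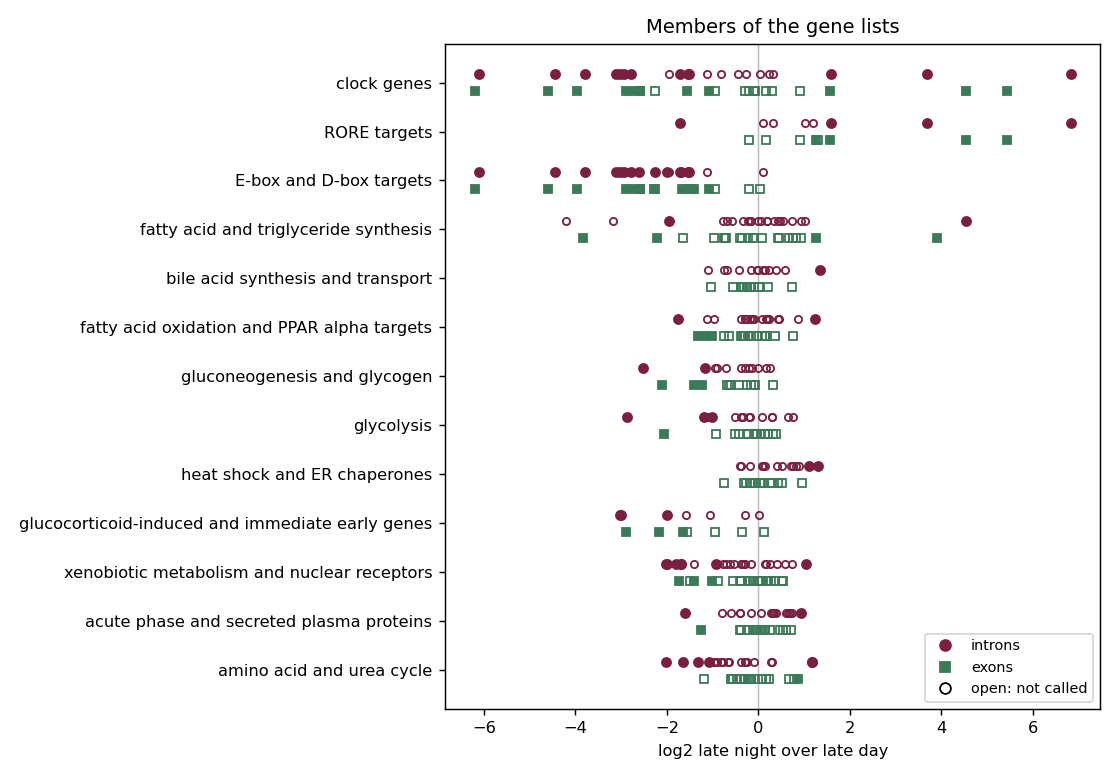
Log2 difference of late night over late day for each member of the lists described here that have 7 or more members (horizontal axis, log2; circles introns, squares exons; filled, called; open, not called). The E-box and D-box targets lie mostly below 0 in both rows, and the amino acid and xenobiotic lists hold 6 and 7 filled circles, against 1 and 3 filled squares. Scaled to the whole library (not drawn), these 2 lists had 1 and 2 calls in introns, against 0 and 3 in exons.

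The next question was whether introns and exons of a gene changed alike. Exons were tested over 11178 genes, and 291 were called (2.6%), 176 higher (1.57%) and 115 lower (1.03%) at late night; without CT59 it was 96 and without CT23 134. Of the 7292 genes studied in introns, 7077 had tested exons and 229 of them were called (3.24%), 136 higher (1.92%) and 93 lower (1.31%). Genes whose introns rose had a median log2 difference of 1.49 in introns and 1.16 in exons (113 genes with exons, 66 called), and those whose introns fell -1.54 and -0.999 (134 genes, 62 called). The exon difference was the smaller in 86 of the 113 and in 115 of the 134. These genes were chosen by their intron values, and choosing by exon values turned the balance: of the 229 genes called in exons, the intron difference was the smaller in 125 and the exon difference in 104. Both readouts come from the same libraries. In exons, Per3 had 3.60 and 3.92 RPM at late night, against 59.4 and 73.0 at late day (log2 -3.96, adjusted p = 1.06e-05), and Upp2 196 and 190.2, against 778 and 1029.8 (log2 -2.21, adjusted p = 0.000129). The exon groups overlapped in neither, and in both the exon difference had the sign of the intron difference. Reads spliced across the qualifying introns gave a further readout of mature RNA, with edgeR's quasi-likelihood test calling 137 of 7688 genes (1.78%), 65 higher (0.845%) and 72 lower (0.937%), and 125 of the 6325 genes studied here (1.98%). Without CT59, CT23 or CT35 the junction test called 47, 59 and 78 genes.

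The test of the difference itself, within each library, called no gene. Limma on the intron level minus the exon level found 0 of 7077 at an adjusted p under 0.05 (0% called) and 440 at an unadjusted p under 0.05, with a smallest adjusted p of 0.0945 for Gstm3. Over all 7077 genes the median of this difference was -0.01. A pair of other tests, added after this count of 0 had been seen, called 14 (edgeR's interaction of read kind and time, 0.198%) and 11 genes (limma with a variance trend, 0.155%), 9 of them shared. Among these were Gstm3, Ero1b and Lipc, with the higher log2 difference in introns, and Ahcy, Fmo5, Ass1, Cyp39a1 and Fgf1, with the lower one in introns. A mean of 50 or more reads called 1 gene (Gstm3) and the deposited upper value 6, and each of the other alternatives called 0. The genes described next were chosen after their values had been seen, by the smallest p of this difference, by the added tests, or by the spread of reads along the gene.

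Gstm3, a glutathione transferase of the mu class (chromosome 3, 107745251 to 107772201), had 127 and 151 intron RPM at late night, against 25.6 and 33.3 at late day, and 208 and 247 exon RPM, against 151 and 188. Neither readout overlapped between the groups, but introns lay further apart (log2 2.23 and 0.43), and the difference of 1.80 did not pass in the planned test (adjusted p = 0.0945) but did in both added ones (adjusted p = 0.0124 and 0.0107). The neighbouring Gstm2 and Gstm4, which like Gstm1 belong to the same family, were also called in introns and not in exons (log2 2.10 and 1.45, against 0.33 and 0.49). Reads of these close paralogs may be shared, and the calls of Gstm2 and Gstm4 were lost without CT47 or CT59, that of Gstm4 also without CT23 or CT35. Lipc, hepatic lipase (chromosome 9, 70645935 to 70782615), had 1222 and 1225 intron RPM, against 241 and 359, and 82.9 and 93.2 exon RPM, against 98.8 and 71.0. The intron groups stood far apart, while the exon groups overlapped (log2 2.06 and 0.07; difference 1.99, adjusted p = 0.223, and 0.039 and 0.0346 in the added tests). Ero1b, an oxidase of the endoplasmic reticulum, had intron and exon log2 differences of 1.12 and -0.37, neither called on its own. Its introns were close to the limit in limma (adjusted p = 0.0534) and passed with TMM scaling, with edgeR and with DESeq2.

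In the other direction, introns of Ahcy and Fmo5 fell. Exons of Ahcy (513 and 629 RPM, against 790.3 and 718; log2 -0.41) and Fmo5 (1313 and 1180.2, against 1119 and 1228; log2 0.09) did not pass, and only those of Fmo5 overlapped between the groups. The difference was -1.62 for Ahcy (adjusted p = 0.194, and 0.039 and 0.0309 in the added tests) and -1.89 for Fmo5 (adjusted p = 0.223, and 0.039 and 0.0346). Junction reads of Ahcy and Fmo5 had log2 differences of -0.37 and -0.22 (adjusted p = 0.553 and 0.731). Cyp39a1, an oxysterol hydroxylase of bile acid synthesis, Fgf1, a fibroblast growth factor, and Ass1, argininosuccinate synthase, had log2 differences of -1.42, -1.34 and -0.82 in introns, of which that of Ass1 was not called, and 0.06, 0.19 and 0.68 in exons. The intron call of Cyp39a1 was lost without CT23 or CT47 (adjusted p up to 0.197) and that of Fgf1 without CT47 (up to 0.108) or without its top intron, and both were lost under scaling to the whole library. Mme, which encodes neprilysin, and Acvr2b, an activin receptor, were among the 8 smallest p of the difference, at -1.53 and -1.51 (adjusted p = 0.173 and 0.223).

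**Figure D4:**
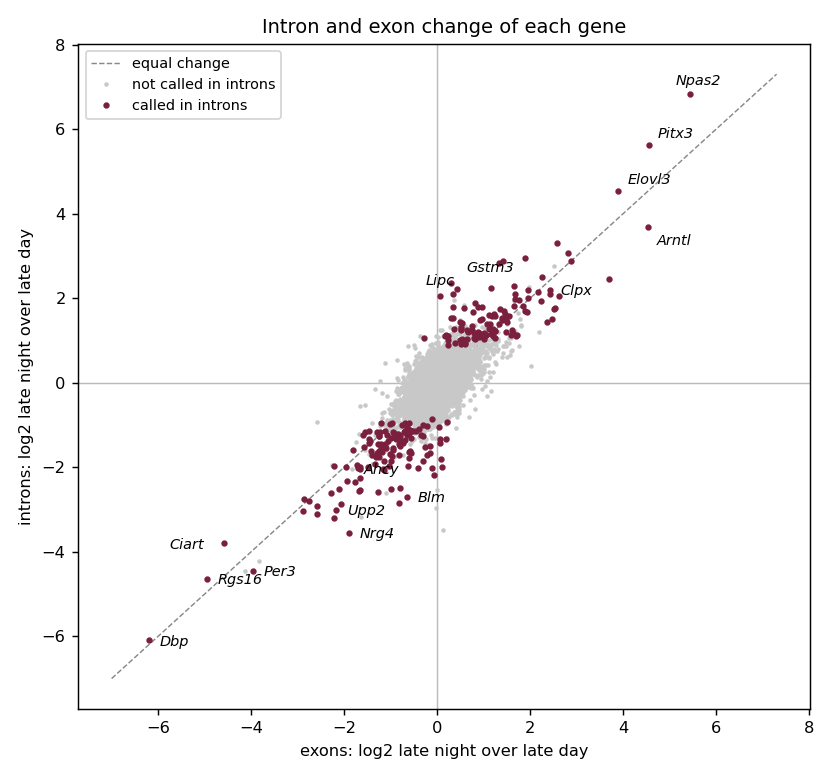
Log2 difference of late night over late day in introns (vertical axis) against exons (horizontal axis) for 7077 genes, 1 point per gene, with called introns in dark red and the line of equal change dashed. Dbp, Per3, Npas2 and Arntl lie near the ends of the line, whereas Lipc, Gstm3, Ahcy and Blm lie off it, with exon differences between -0.64 and 0.43.

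Reads along the gene showed which introns carried these sums. In Per3 the last of 16 introns (2.27 kb) held 52.7% of the reads, with 6 and 12 reads at late night, against 250 and 138 at late day. Junction reads across this last intron numbered 0 and 0 at late night and 6 and 1 at late day, and the source of its reads was not tested. The first intron held 0 and 2, against 21 and 16, and each of the 16 had more reads at late day than at late night when both libraries were added. In Arntl the 27.0 kb first intron had 64 and 61 reads, against 3 and 12, and the last 30 and 20, against 1 and 0, and all 17 had more reads at late night. Npas2 had 126 and 98 reads in its 68.6 kb first intron, against 3 and 0. All 20 of its introns had at least 1 read at late night, but unevenly, with 33.8%, 13.9% and 12.7% of the reads in introns 1, 2 and 19.

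Upp2 and Lipc were uneven. The first qualifying intron of Upp2 (15.8 kb), which lies outside the span of the transcript with the most reads, had 36 and 29 reads at late night, against 49 and 37 at late day. The 7 introns after it had 3 to 189 reads at late night, against 45 to 2276 at late day, and in each of them both late-night libraries were below both late-day ones. Introns 2, 3 and 4 of Upp2 were crossed by no junction read in any of the 8 libraries, and intron 4 held 43.5% of the intron reads. Another transcript there and unspliced Upp2 RNA cannot be told apart. Junction reads crossed each of introns 5 to 8 in all 8 libraries. The 110.9 kb first intron of Lipc held 69.3% of its intron reads, with 1167 and 1217 reads at late night, against 150 and 346 at late day. In the 7 later introns of Lipc the groups did not overlap either, with lengths of 1.39 to 8.86 kb and log2 differences of pooled levels between 0.93 and 2.23.

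Blm, a helicase of DNA repair, fell in introns (18.8 and 25.7 intron RPM, against 211 and 101.3; log2 -2.70, adjusted p = 7.45e-05) and did not pass in exons (log2 -0.64, adjusted p = 0.497; difference -2.06, adjusted p = 0.173). Its last intron (3.38 kb) held 78.0% of the reads, 14 and 23 at late night, against 260 and 107 at late day, and the intron before it 13.3%, 3 and 3 against 45 and 18. No junction read crossed either of these 2 introns in the 4 libraries, though 1 and 2 did at CT29. Each of the 18 introns before them had at most 8 reads in any library. Junction reads were few there too, at most 4 per intron in any library, so their absence in the last 2 says little. A transcript from another source within these introns and unspliced Blm RNA cannot be told apart. Pitx3, which had no junction reads in any of the 8 libraries, had 81.7% of its reads in its 10.7 kb first intron, 597 and 451 at late night, against 11 and 11 at late day.

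**Figure D5:**
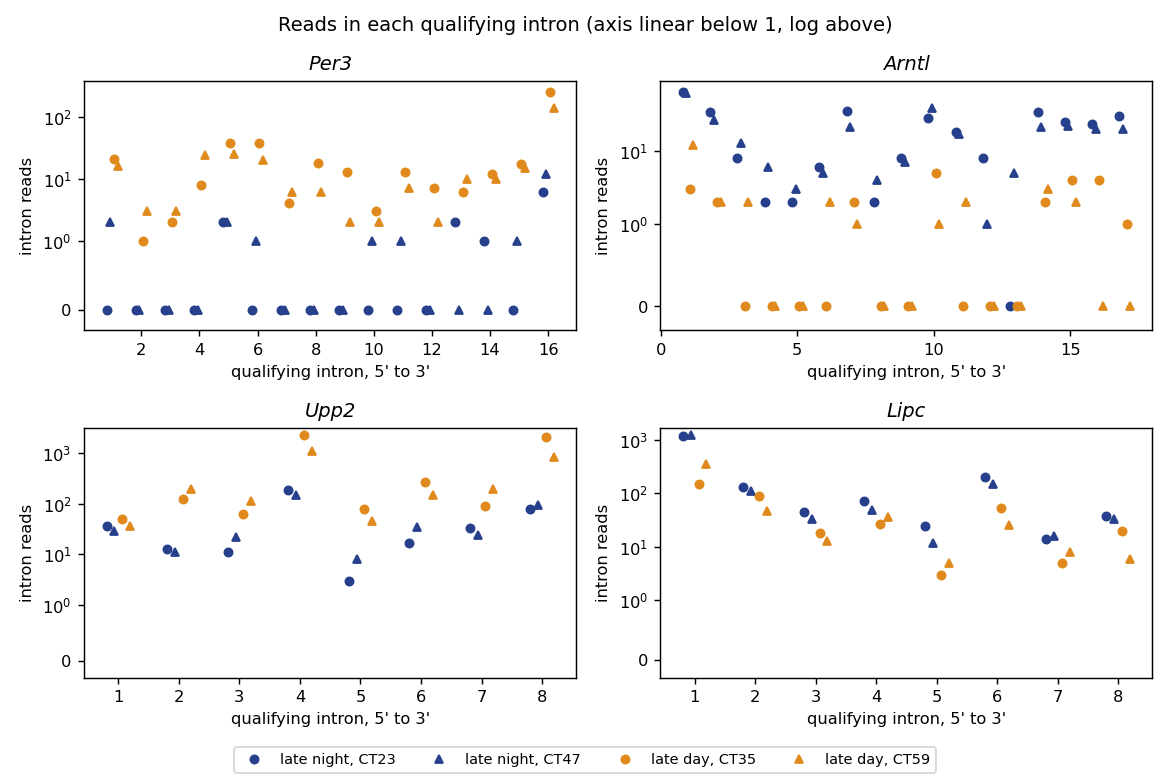
Reads in each qualifying intron of 4 genes (horizontal axis, intron in order from 5′ to 3′; vertical axis, reads, linear below 1 and log above; blue late night, orange late day, circle first day, triangle second day). Reads are not scaled for depth, which was 1.32 to 1.52 M intron reads in these 4 libraries; Per3 and Arntl differ along the whole gene, Upp2 from its second intron on, and in Lipc the first intron holds most reads.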

How the data were processed

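Livers of 8 times were measured by sequencing of polyA-selected RNA, and the submitters' processing notes name the mm9 build. The track lines of the deposited junction files name RUM, that of CT35 under another naming pattern; the quantifying program and its strand setting are unstated in the sources used here. The deposited feature tables give a lower and an upper value per exon and intron, named min and max per the file headers; their step with length and depth is that of RPKM (reads per kilobase per 1 M reads), and what separates them is not given. The deposited junction tables hold raw read counts, per the file headers. The lower value was turned into reads, whole within 0.1 read for 98.7 to 99.6% of introns per library. Of 115699 transcripts, 79705 were named, 25894 through RefSeq and 53811 through Vega identifiers. Of 239419 distinct introns, 161047 qualified and were summed, and 4737 of them overlap an intron of another gene by at least 1 base. Exons were those of the transcript with the most reads.

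Levels were log2(reads per 1 M of the same kind + 0.5), fitted with limma 3.58.1 (trend, robust; R 4.3.3) to a cosine and sine of 24 h over all 8 libraries, with 5 residual degrees of freedom. The cosine contrasts CT23 and CT47 with CT35 and CT59. Fold changes on this scale understate those of low genes. Junction counts were tested with edgeR 4.0.16 (quasi-likelihood, TMM). Adjusted p-values are Benjamini-Hochberg over all genes tested, called under 0.05, with genes at a mean of 20 or more reads. The scripts were tested on simulated data. The members, gene lists and tests were chosen with earlier results of these data known. Named were all clock genes, the 8 largest called changes each way with a mean of 50 or more reads and no overlap of the groups, per list the called members and the most abundant member without a call, and the largest called intron-minus-exon differences, of which there was none. A few genes that the rule names are not reported here. Other genes were chosen after their values were seen. Alternatives varied scaling, pseudocount, filter, deposited value, model, tool (edgeR; DESeq2 1.42.0), introns, exons and libraries. Replicates are pools of single times, and their precision is limited by read number.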

Additional observations from a re-analysis of the deposited data

How the results depend on the processing

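No call of a gene named here was reversed under the alternatives run. In introns (254 calls), scaling to the whole library gave 132 (84 higher, 48 lower) and moved the median of all genes by 0.22 on the log2 scale; leaving out 1 library gave 141 to 261; the deposited upper value gave 321 (50 higher, 271 lower) with a median of -0.33. The share of rises among the calls thus moved with the scale. The other alternatives gave 211 to 316. In exons (291 calls), the upper value gave 53, the 4 libraries alone 192, DESeq2 482, and leaving out 1 library 96 to 304. In junctions (137 calls), DESeq2 gave 222, and leaving out 1 library 47 to 148. For the difference of introns and exons (0 calls), the upper value gave 6, a mean of 50 or more reads 1, edgeR's interaction 14 and a variance trend 11, the last 2 chosen after seeing the data; leaving out 1 library gave 0 each time. The cause of these moves was not tested.

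Of the 64 called genes named here, 23 lost the call under scaling to the whole library, 13 with the upper value, 8 with the 4 libraries alone, 8 of 55 without the intron of most reads, 3 with edgeR, 2 with TMM and 0 with DESeq2, all in the same direction. The 13 were Clock, Lpin2, Abcb11, Plin2, Pdia4, Calr, Fgg, Cbs, Hal, Gstm1, Gstm2, Gstm4 and Agxt. Some genes without a call passed under an alternative. Among them were Cry2, Hlf and Mt1 with the upper value, Scd1 with a mean fitted per phase, Elovl5 with the replicate block and Tat without a filter on low values. Genes without a call that changed sign were Rora (-0.111 with the upper value, -0.212 without its top intron, -0.0899 to 0.78 with 1 library left out), Timeless (-0.304, -0.129, -0.164 to 0.24), Ces2a (-0.251, -0.0865, -0.137 to 0.182), Alb (-0.297, -0.0631, -0.134 to 0.301), Reln (-0.176 with the upper value), Stab2 (-0.301, and -0.137 to 0.126 with 1 library left out), Ptprc (-0.316, -0.377 to 0.531), Cry1 (-0.199 to 0.805) and Cps1 (0.166 scaled to the whole library, -0.297 to 0.195).

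The labels give no replicate numbers, and the 2 days were used as a replicate block only as an alternative. Deviations of the first from the second day correlated at -0.06 between late night and late day in introns and -0.37 in exons, and over the 6 pairs of phases at -0.211 to 0.202 and -0.368 to 0.283, so not every pair was positive and the day was not taken to pair the libraries. With the block there were 268 calls in introns, 237 in exons, 0 in the difference and 116 in junctions.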

Other observations

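Some called genes outside the lists, chosen after their values were seen, may be worth a look. Clpx, the ATPase subunit of a mitochondrial protease, had 387 and 394 intron RPM at late night, against 75.6 and 94.7 at late day (log2 2.20, SE 0.25, adjusted p = 1.6e-05 in limma; exons 2.43). Gpcpd1, a glycerophosphodiesterase, had 28.96 and 24.98, against 193 and 178 (log2 -2.76, SE 0.29, adjusted p = 7.36e-06; exons -2.87). Rgs16, a regulator of G protein signalling, had 2 intron reads in each late-night library, against 79 and 62 at late day, a depth-scaled ratio of 0.0302 (95% exact binomial interval 0.00811 to 0.079, counting error only). In these 3 genes both late-night libraries lay on 1 side of both late-day libraries, in introns and in exons. Creld2, a gene of the endoplasmic reticulum, and Agxt, a peroxisomal aminotransferase, had log2 differences of 1.80 and 1.06 in introns, both called, and 0.34 and -0.29 in exons, neither called; the Agxt call was lost without CT23, CT35, CT47 or CT59.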
